A study of Mus musculus with 8 samples.

Results

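The genes described here are those of the collagen chains, taken as every gene of the deposited table whose symbol is Col, a type number, the letter a and a chain number with nothing after it. The rule found 44 genes among the 17191 of the table. Of these, 33 passed a filter on low counts that left 12998 genes to be tested, and 11 did not. They fall into 11 fibrillar chains, 9 chains of network-forming collagens (types IV, VIII and X), 9 chains of FACIT collagens, which bind to the surface of fibrils, and 15 other chains. Their mRNA was measured in whole hearts of mice 4 weeks after TAC (transverse aortic constriction), in which a band around the aortic arch loads the left ventricle with pressure. The groups were 4 libraries from mice whose STAT3 carries S727A, where a serine that can be phosphorylated is replaced by alanine, and 4 libraries from wild-type mice (WT). All animals had the operation, so no comparison with an unloaded heart was made. Age, sex, strain, zygosity and the animal behind each library were not stated. Each p-value therefore reflects the spread from library to library, which may be technical.

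Collagen chains assemble in threes into a triple helix. Fibrillar types I and III form the bulk of the fibres between heart muscle cells, with type V inside those fibrils, and are made mainly by fibroblasts. Type IV builds the sheet-like basement membrane around muscle cells and capillaries, type VI forms beaded filaments next to it, and types XV and XVIII lie in the basement membrane zone. Build-up of fibrillar collagen, called fibrosis, is a known feature of the pressure-loaded heart.

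Total counts per library ran from 10577619 to 13305124. Heart muscle markers (10 genes) summed to 91200 to 98450 CPM, which are counts scaled to equal library size, in S727A and 87850 to 123900 CPM in WT, so the tissue label held. S727A 4 and WT 4 had almost no reads of Y-linked genes (0.699 and 0.467 CPM over 4 genes, against 158 to 186 CPM in the other libraries). WT 1 and WT 4 held transcripts of airway and lung (192 and 79.4 CPM over 11 genes, against at most 2.78 CPM in any other library). Counts of chains are given below also without these pairs. Fold changes of the chains called in any fit that left out libraries are given also without the WT pair with airway transcripts. For Col6a6 the value without the pair that lacks Y-linked reads is given as well. In bulk tissue, fewer cells of a type and less RNA per cell cannot be told apart.

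Collagen transcripts were mostly more abundant in S727A than in WT hearts, but with large spread between the libraries of each group, and no chain passed the test over all genes. The median SD of log2 CPM of the tested chains was 0.36 in WT and 0.32 in S727A, against 0.18 and 0.17 over all tested genes. Of the 33 chains tested, 28 had a log2 fold change above 0 (84.8%, against 49.4% of all tested genes), and the median was 0.47, against 0.00 over all tested genes. In edgeR's quasi-likelihood test with Benjamini-Hochberg adjustment over all genes 0 of the 33 passed (adjusted p from 0.0992 to 0.926), where 0.146% of all tested genes did (0.0462% higher and 0.1% lower). At an unadjusted p under 0.05 there were 18 chains higher (54.5%) and 2 lower (6.06%) in S727A, against 8.97% and 8.79% of all tested genes. Of these counts, 3 of the chains above 0 and 3 of those higher (Col9a2, Col11a1 and Col26a1) were chains that passed the filter mainly through S727A, and among the other 30 chains 25 were above 0 and 15 higher at an unadjusted p under 0.05. Many chains shifted together from library to library. WT 3, for example, was the highest WT library for 24 of the 33, against 25.2% of all tested genes. The chains are thus not separate pieces of evidence, and these counts are a description. The medians over all tested chains of a class were 0.62 for fibrillar, 0.48 for network, 0.51 for FACIT and 0.35 for other chains. DESeq2 called 5 chains higher (Col9a2, Col8a2, Col1a2, Col1a1 and Col3a1) and 1 lower (Col6a6), against 2.2% and 1.91% of all genes (4 higher and 1 lower among the 30), while limma voom and limma on log2 FPKM called 0 (0.0462% of all genes in each). The authors' deposited table gave a q under 0.05 to 4 chains as higher (Col8a2, Col9a2, Col1a2 and Col3a1) and to 1 as lower (Col6a6), against 1.38% and 1.24% of the genes with a q-value, and a q of 0.061 to Col1a1.

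These counts depended on which libraries were in the fit. WT 3 was the highest WT library for most chains, and without it edgeR called 9 chains higher and 1 lower (1.25% and 0.847% of all genes), or 8 and 1 among the 30. The 9 were Col1a1, Col1a2, Col3a1, Col5a1, Col5a2, Col8a2, Col9a2, Col12a1 and Col16a1, and the chain called as lower was Col6a6. Where WT 3 is the highest WT library of a gene, leaving it out raises the fold change by itself, and where it is the lowest, lowers it. The values without WT 3, here, for single chains and for the other gene lists below, thus describe its influence and are no test of genotype. Without S727A 4, edgeR called Col6a6 alone (4.71% of all genes were called in either direction), as it did without the pair of libraries that lack Y-linked reads (1.86%). The count of chains higher at an unadjusted p under 0.05 was 21 without WT 3 (10.7% of all genes) and between 6 and 15 without any other single library, the lowest being 6 without S727A 3 (6.85% of all genes), 7 without WT 1 (5.62%) and 7 without WT 2 (5.94%). It was 8 without WT 4 (9.13%), 10 without S727A 2 (6.7%), 14 without S727A 4 (11.5%) and 15 without S727A 1 (6.65%). Leaving out the pair that lacks Y-linked reads gave 9 (11.4%), and leaving out the WT pair with airway transcripts gave 3 (4.32%). Without that WT pair 18 of the 33 log2 fold changes were more than 1.5 times smaller and 1 was more than 1.5 times larger, and the median was 0.32. Without WT 3 these numbers were 2 and 5, with a median of 0.62, and without the pair that lacks Y-linked reads they were 2 and 0, with a median of 0.56. Leaving out the airway pair keeps WT 2 and WT 3 alone as the WT group. Summed collagen FPKM was lowest in the omitted WT 1 (409.9) and highest of WT in WT 3 (760.0), which by itself shrinks many fold changes above 0. With fewer libraries 0 of all tested genes were called. The values without this pair, here and below, thus describe its influence and are no test of airway tissue.

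**Figure D1:**
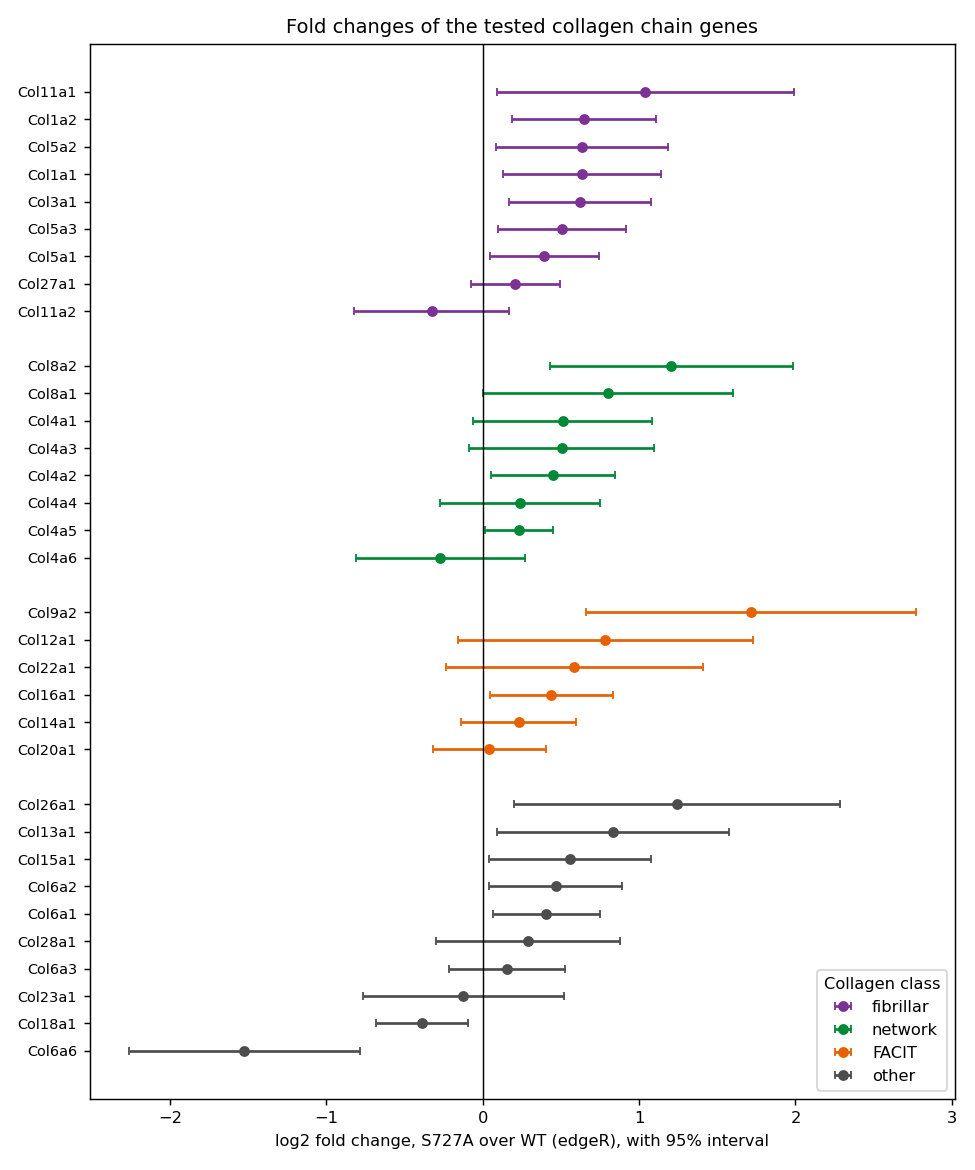
Log2 fold change of S727A over WT for the 33 tested collagen chains (points, edgeR) with 95% intervals (bars), grouped by class on the vertical axis. Most points lie right of 0, with Col9a2 at 1.71 as the highest and Col6a6 at -1.53 as the lowest.

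Levels of different chains were compared by FPKM, which the authors divided by gene length. Averaged over the 8 libraries, Col4a1 was the most abundant chain at 122 FPKM, followed by Col4a2 at 91.0, Col3a1 at 86.9, Col1a2 at 59.5, Col1a1 at 51.1, Col6a2 at 50.7, Col15a1 at 45.6 and Col6a1 at 43.9 FPKM. These 8 chains made up 83.0% of the summed collagen FPKM. Col8a1 (25.8 FPKM), Col5a2 (14.4), Col5a1 (13.1) and Col4a5 (10.9) came next, and the remaining 32 chains were below 10 FPKM. Summed over all 44 chains, collagen reached 665, 851, 905 and 684 FPKM in S727A 1 to 4 and 409.9, 471, 760.0 and 563 FPKM in WT 1 to 4. WT 3 lay above S727A 1 and S727A 4, so the groups overlapped.

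Type I collagen, the main tensile fibre, is a trimer of 2 chains from Col1a1 and 1 from Col1a2. Col1a1 (gene 12842, chromosome 11, 94936224 to 94953042, plus strand, GRCm38) was at 413, 354, 384 and 314 CPM in S727A 1 to 4 and at 159, 199.7, 359 and 225 CPM in WT 1 to 4. All S727A libraries were above WT 1, 2 and 4, and WT 3 lay among them. The means were 366 ± 42.4 and 236 ± 86.7 CPM (SD, n = 4), and the log2 fold change was 0.63 ± 0.22 (SE, edgeR adjusted p = 0.20). Without WT 3 it was 0.91 (edgeR adjusted p = 0.0119), and without the WT pair with airway transcripts it was 0.39 (edgeR adjusted p = 0.574). Without S727A 3, WT 1 or WT 2 it was 0.61, 0.49 and 0.56 (edgeR adjusted p of 0.361, 0.383 and 0.413). Col1a2 (gene 12843, chromosome 6, 4504814 to 4541544, plus strand) also had WT 3 alone inside the S727A range. Its values were 374, 384, 422 and 325 CPM in S727A 1 to 4 and 168, 212, 358 and 220.0 CPM in WT 1 to 4. Its log2 fold change was 0.65 ± 0.21 (SE, edgeR adjusted p = 0.166), 0.91 without WT 3 (edgeR adjusted p = 0.00938) and 0.40 without the airway pair (edgeR adjusted p = 0.542).

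Type III collagen, which forms finer fibrils from a single kind of chain, is encoded by Col3a1 (gene 12825, chromosome 1, 45311538 to 45349706, plus strand). It was at 655, 585, 650.2 and 439.8 CPM in S727A 1 to 4 and at 282, 356, 543 and 331 CPM in WT 1 to 4. S727A 4 was the lowest of its group and lay below WT 3, but above the other WT libraries. The log2 fold change was 0.62 ± 0.20 (SE, edgeR adjusted p = 0.173), 0.85 without WT 3 (edgeR adjusted p = 0.0202) and 0.37 without the airway pair (edgeR adjusted p = 0.566). Col5a2 (chromosome 1, 45374321 to 45503282, minus strand), a type V chain, lies tail to tail with Col3a1 across a gap of 24614 bases and was similar in log2 fold change, at 0.64 ± 0.24 (SE; edgeR adjusted p = 0.226). Its values were 118, 128, 134 and 82.3 CPM in S727A and 51.5, 68.1, 112 and 65.8 CPM in WT, again with WT 3 inside the S727A range. The fold change on the log2 scale was 0.90 without WT 3 (edgeR adjusted p = 0.0309) and 0.36 without the airway pair (edgeR adjusted p = 0.634).

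The start sites of Col1a2 and Col3a1 are shown because these chains had similar log2 fold changes while their windows differ in base composition. Each window, from RefSeq on GRCm38.p6, runs from 250 bases before to 50 after the annotated start, on the plus strand. Capitals mark matches to 3 motifs on either strand. The first is the GC box, spelled GGGCGG. Next is the CCAAT box, which is spelled as it is named. The last is the STAT-type element, spelled TTCNNNGAA, where N stands for any base.
Col1a2 (chr6:4505368-4505667): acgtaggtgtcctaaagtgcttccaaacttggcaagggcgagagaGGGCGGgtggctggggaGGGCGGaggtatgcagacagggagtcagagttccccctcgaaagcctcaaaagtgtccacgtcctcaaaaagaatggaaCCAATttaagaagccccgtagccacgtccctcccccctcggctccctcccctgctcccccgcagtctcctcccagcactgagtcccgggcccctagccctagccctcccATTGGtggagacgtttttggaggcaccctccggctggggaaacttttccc
Col3a1 (chr1:45311288-45311587): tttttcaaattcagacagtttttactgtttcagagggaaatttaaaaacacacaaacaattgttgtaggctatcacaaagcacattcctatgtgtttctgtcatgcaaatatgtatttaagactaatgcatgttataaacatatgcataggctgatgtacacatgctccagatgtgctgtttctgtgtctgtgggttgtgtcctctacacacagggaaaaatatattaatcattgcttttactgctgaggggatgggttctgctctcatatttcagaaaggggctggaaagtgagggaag
The Col1a2 window was 61.0% G or C, with 2 GC boxes and 2 CCAAT boxes, and that of Col3a1 was 37.7% G or C with none of the 3 motifs. A window was at hand for 35 of the 44 genes. Of these, 22 held a GC box (62.9%, against 38.2% of all genes with a window), 13 a CCAAT box (37.1% against 41.1%) and 2 a STAT-type element (Col6a5 and Col28a1, 5.71% against 9.55%). A match of letters is a description of the window and not a binding site.

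The other type V chains, which set the width of type I fibrils, were Col5a1 at 123 ± 16.4 CPM (S727A) and 93.6 ± 22.6 CPM (WT) and Col5a3 at 29.8 ± 6.44 and 20.8 ± 4.66 CPM (SD, n = 4). Their log2 fold changes were 0.39 ± 0.16 and 0.51 ± 0.19 (SE, edgeR adjusted p of 0.234 and 0.20). For Col5a1 it was 0.57 without WT 3 (edgeR adjusted p = 0.0383) and 0.22 without the airway pair (edgeR adjusted p = 0.674). For Col5a3 the highest WT library was WT 4 at 26.2 CPM, not WT 3 at 21.8 CPM. Col27a1, a fibrillar chain best known from cartilage, was nearly level at 11.2 ± 0.739 and 9.69 ± 1.19 CPM (SD, n = 4, log2 fold change 0.21 ± 0.13, SE), with WT 3 the lowest of all 8 libraries at 8.12 CPM. The type XI chains, also cartilage collagens, were rare. Col11a1 was at 1.55 ± 0.631 and 0.75 ± 0.414 CPM (log2 fold change 1.04 ± 0.43, SE) and Col11a2 at 2.25 ± 0.302 and 2.82 ± 0.542 CPM (SD, n = 4), the sole fibrillar chain tested whose fold change was below 0 (-0.33 ± 0.23, SE). Over the 9 tested fibrillar chains the median log2 fold change was 0.62, and the SD of log2 CPM was larger in WT than in S727A for all 9. The SD was larger in WT for 6 of the 8 network, 5 of the 6 FACIT and 3 of the 10 other chains, which is 23 of 33 in all (69.7%, against 50.8% of all tested genes). In the other chains its median was 0.30 in WT and 0.42 in S727A.

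**Figure D2:**
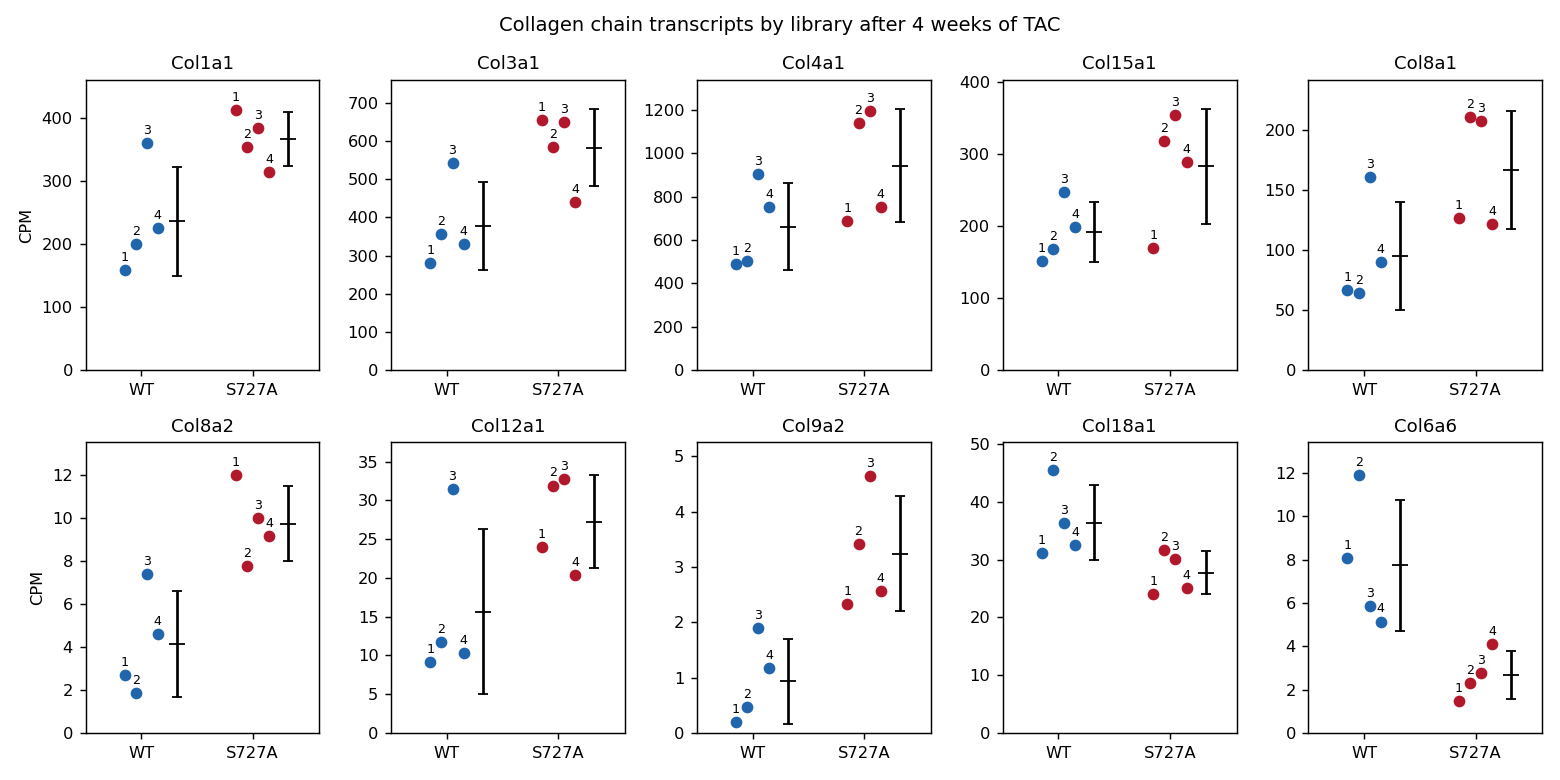
CPM (vertical axis, linear, from 0) of 10 collagen chains in each WT and S727A library. Points are libraries with their replicate numbers, and bars give the group mean ± SD (n = 4). WT 3 sits inside or beside the S727A range for Col1a1, Col3a1, Col4a1, Col8a1 and Col12a1, while Col6a6 separates the groups in the other direction.

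Among network-forming collagens the basement membrane chains Col4a1 and Col4a2, which assemble together in a trimer found in nearly all basement membranes, were the most abundant. Col4a1 (gene 12826, chromosome 8, 11198423 to 11312826, minus strand) was at 688, 1138, 1193 and 753 CPM in S727A 1 to 4 and at 489, 503, 904 and 750.2 CPM in WT 1 to 4. S727A 2 and 3 were above every WT library, and S727A 1 and 4 lay within the WT range. The log2 fold change was 0.51 ± 0.25 (SE, edgeR adjusted p = 0.331). Col4a2 (gene 12827, chromosome 8, 11312805 to 11449287, plus strand) was at 559, 784, 795 and 556 CPM in S727A 1 to 4 and at 396, 404.5, 617 and 556 CPM in WT 1 to 4. Its log2 fold change was 0.45 ± 0.18 (SE, edgeR adjusted p = 0.233), and neither chain was called without WT 3 (edgeR adjusted p of 0.156 and 0.104). The FPKM ratio of Col4a1 over Col4a2 ran from 1.20 to 1.46 in S727A and from 1.21 to 1.43 in WT.

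These genes lie head to head and their annotated spans overlap by 22 bases, so their promoter windows share 78 bases. The Col4a2 window, from RefSeq on GRCm38.p6 and on the plus strand, is shown with the bases that also belong to the Col4a1 window in capitals.
Col4a2 (chr8:11312555-11312854): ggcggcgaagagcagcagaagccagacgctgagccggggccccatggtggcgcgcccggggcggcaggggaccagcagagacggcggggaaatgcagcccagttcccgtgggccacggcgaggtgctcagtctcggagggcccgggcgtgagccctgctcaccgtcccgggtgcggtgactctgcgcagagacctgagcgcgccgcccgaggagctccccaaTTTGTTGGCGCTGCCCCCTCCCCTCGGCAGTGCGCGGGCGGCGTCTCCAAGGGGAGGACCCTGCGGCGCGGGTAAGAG
This window was 73.7% G or C and held 3 GC boxes, 1 CCAAT box and no STAT-type element. Reads of such overlapping genes cannot be told apart where counting ignores strand. The libraries were stranded per the labels' protocols, but whether counting used the strand was not stated.

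The 4 minor type IV chains occur in more restricted basement membranes. Col4a3 and Col4a4, a head-to-head pair on chromosome 1 with a gap of 71 bases, had log2 fold changes of 0.50 ± 0.26 and 0.24 ± 0.23 (SE). Their means were 18.6 ± 5.82 against 13.0 ± 4.29 CPM and 24.8 ± 7.22 against 20.9 ± 5.10 CPM in S727A and WT (SD, n = 4). The X-linked pair Col4a5 and Col4a6, head to head with a gap of 1308 bases, differed in sign. Col4a5 was at 76.1 ± 7.69 and 64.8 ± 6.08 CPM (log2 fold change 0.23 ± 0.10, SE) and Col4a6 at 3.37 ± 0.568 and 4.07 ± 1.26 CPM (SD, n = 4, log2 fold change -0.27 ± 0.25, SE). None of the 4 was called in edgeR, with adjusted p from 0.252 to 0.626.

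Type VIII collagen, a short-chain network collagen of vessel walls, had the largest differences of the network class. Col8a1 (gene 12837, chromosome 16, 57624258 to 57754737, minus strand) was at 127, 210.4, 208 and 121 CPM in S727A 1 to 4 and at 66.4, 64.0, 161 and 89.9 CPM in WT 1 to 4. WT 3 was the one WT library inside the S727A range. The log2 fold change was 0.80 ± 0.34 (SE, edgeR adjusted p = 0.279), and 1.18 without WT 3 (edgeR adjusted p = 0.0514). Col8a2 (gene 329941, chromosome 4, 126286793 to 126314330, plus strand) was rarer, at 11.99, 7.78, 9.99 and 9.17 CPM in S727A 1 to 4 and at 2.68, 1.87, 7.39 and 4.60 CPM in WT 1 to 4. The groups did not overlap, though S727A 2 and WT 3 were close. Its log2 fold change was 1.21 ± 0.35 (SE, edgeR adjusted p = 0.143), 1.65 without WT 3 (edgeR adjusted p = 0.0193) and 1.04 without the airway pair (edgeR adjusted p = 0.515). Of the 33 tested chains, 2 had every S727A library above every WT library, where 4.07% of all tested genes were, and 1 was lower, where 4.36% were. The 2 were Col8a2 and Col9a2. Col9a2 passed the filter mainly through the S727A libraries, in which it was higher. The filter thus favoured a difference in that direction, and the separation of Col9a2 is no independent support.

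The FACIT collagens link fibrils to each other and to the matrix around them. Col12a1 (gene 12816, chromosome 9, 79598991 to 79718831, minus strand), a large chain of tissues under tension, was at 24.0, 31.9, 32.7 and 20.4 CPM in S727A 1 to 4 and at 9.20, 11.7, 31.5 and 10.3 CPM in WT 1 to 4. WT 1, 2 and 4 were at about the same level, and WT 3 was as high as S727A 2 and 3. The log2 fold change was 0.78 ± 0.41 (SE, edgeR adjusted p = 0.362), 1.39 without WT 3 (edgeR adjusted p = 0.00938) and 0.32 without the airway pair (edgeR adjusted p = 0.803). Col9a2 (gene 12840, chromosome 4, 121039385 to 121055322, plus strand), a chain of cartilage type IX collagen, rested on few reads, with 30, 43, 52 and 33 counts in S727A and 2, 5, 26 and 15 counts in WT. In CPM this was 2.34, 3.41, 4.64 and 2.56 against 0.19, 0.47, 1.90 and 1.17, with no overlap. Its log2 fold change of 1.71 ± 0.48 was the largest of the tested chains (SE, edgeR adjusted p = 0.135), 2.33 without WT 3 (edgeR adjusted p = 0.0343) and 1.38 without the airway pair (edgeR adjusted p = 0.494). Its partner chains Col9a1 and Col9a3 had 6 and 16 counts over all libraries and were not tested. Cartilage markers (3 of 10 passed the filter) summed to 18.2 to 31.9 CPM in S727A and 20.3 to 36.0 CPM in WT.

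Col14a1 and Col16a1 were the most abundant FACIT chains by FPKM. Col14a1 was at 56.2 ± 10.4 and 47.9 ± 9.13 CPM (SD, n = 4, log2 fold change 0.23 ± 0.17, SE), and WT 1 at 34.3 CPM stood apart from the other WT libraries (50.9 to 53.7 CPM). Without WT 1 its log2 fold change was 0.10 (edgeR adjusted p = 0.801). Col16a1 was at 28.6 ± 3.28 and 21.1 ± 6.03 CPM (SD, n = 4). Its log2 fold change was 0.44 ± 0.18 (SE, edgeR adjusted p = 0.241), 0.64 without WT 3 (edgeR adjusted p = 0.047) and 0.16 without the airway pair (edgeR adjusted p = 0.739). Col22a1, a chain of muscle-tendon junctions, was at 3.93 ± 1.11 and 2.56 ± 1.58 CPM (log2 fold change 0.59 ± 0.38, SE), and Col20a1 at 8.60 ± 1.82 and 8.34 ± 0.759 CPM (SD, n = 4, log2 fold change 0.04 ± 0.17, SE). For all 6 tested FACIT chains WT 3 was the highest WT library, which held for 24 of the 33 tested chains (72.7%) and for 25.2% of all tested genes.

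**Figure D3:**
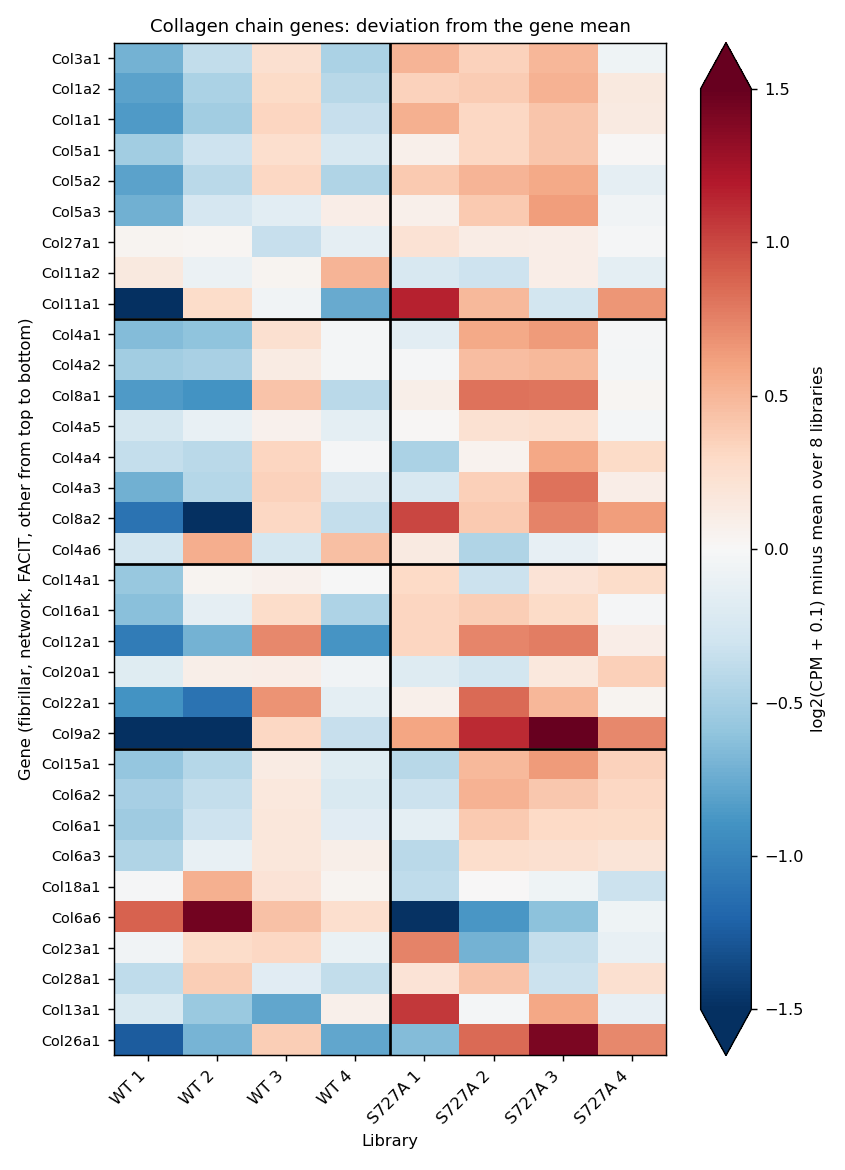
Deviation of each tested collagen chain from its own mean, as log2(CPM + 0.1), in the 8 libraries (columns), with genes in rows by class and, within a class, by abundance. Red is above and blue below the gene's mean. WT 3 is red for most fibrillar and network chains, unlike WT 1 and WT 2, and Col6a6 is red in all 4 WT and blue in all 4 S727A libraries.

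Among the other collagens, type VI forms the beaded filaments between basement membrane and fibres. Col6a1 (gene 12833, chromosome 10, 76708792 to 76726168, minus strand) was at 152, 220.4, 208 and 205 CPM in S727A 1 to 4 and at 116, 136, 189.9 and 149.9 CPM in WT 1 to 4. Col6a2 (gene 12834, chromosome 10, 76595762 to 76623630, minus strand) was at 149, 265, 244 and 230.0 CPM in S727A 1 to 4 and at 131, 145, 207 and 159 CPM in WT 1 to 4. In both, S727A 1 was the lowest of its group and below WT 3. Their log2 fold changes were 0.41 ± 0.16 and 0.47 ± 0.19 (SE, edgeR adjusted p of 0.218 and 0.247), and that of Col6a3, the largest of the main type VI chains, was 0.15 ± 0.17 (SE, 81.7 ± 16.2 and 73.4 ± 13.3 CPM, SD, n = 4). The FPKM ratio of Col6a3 over Col6a1 was 0.161 to 0.186 in S727A and 0.193 to 0.234 in WT, without overlap. Of 10 such ratios between chains, 2 did not overlap between the groups, this one and that of Col15a1 over Col18a1. They were singled out after their values were seen and were not tested.

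Col6a6, an alternative type VI chain, had the largest difference below 0. Of the other tested chains, Col18a1, Col11a2, Col4a6 and Col23a1 were also below 0. Col6a6 (gene 245026, chromosome 9, 105687809 to 105828160, minus strand) had 19, 29, 31 and 53 counts in S727A 1 to 4 and 84, 127, 80 and 66 counts in WT 1 to 4. In CPM this was 1.48, 2.30, 2.77 and 4.12 against 8.05, 11.9, 5.86 and 5.14, so every S727A library lay below every WT library. The log2 fold change was -1.53 ± 0.34 (SE), the smallest edgeR adjusted p of the collagen chains at 0.0992. It was -1.82 without S727A 4 (edgeR adjusted p = 0.0208) and -1.64 without WT 3 (edgeR adjusted p = 0.0472). Without the airway pair it was -1.72 (edgeR adjusted p = 0.435), without the pair that lacks Y-linked reads -1.98 (edgeR adjusted p = 0.0288), and the adjusted p was 0.00174 in DESeq2. The neighbouring genes Col6a5 and Col6a4 encode related chains, and how shared reads were divided was not stated. For Col6a6 and Col6a5, 1 of the 8 estimated counts each was not whole. The Col6a6 promoter window, from RefSeq on GRCm38.p6 and written on the minus strand of the gene, is shown as that of the chain with the largest difference below 0, with capitals as for Col1a2.
Col6a6 (chr9:105828036-105828335): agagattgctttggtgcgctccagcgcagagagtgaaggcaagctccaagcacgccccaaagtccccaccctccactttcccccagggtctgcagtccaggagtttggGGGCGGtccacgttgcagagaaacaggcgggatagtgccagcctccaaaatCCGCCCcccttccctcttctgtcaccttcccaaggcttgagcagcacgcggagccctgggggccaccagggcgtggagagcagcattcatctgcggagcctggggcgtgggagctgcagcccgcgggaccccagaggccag
It was 65.0% G or C and held 2 GC boxes and neither a CCAAT box nor a STAT-type element.

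Types XV and XVIII, close relatives whose fragments (that of type XVIII is endostatin) restrain vessel growth, had log2 fold changes of opposite sign. Col15a1 (gene 12819, chromosome 4, 47208161 to 47313167, plus strand) was at 170.3, 319, 354 and 289 CPM in S727A 1 to 4 and at 152, 168, 247 and 199.4 CPM in WT 1 to 4. S727A 1 lay within the WT range and the other S727A libraries above it. The log2 fold change was 0.56 ± 0.23 (SE, edgeR adjusted p = 0.252). Col18a1 (gene 12822, chromosome 10, 77052178 to 77166548, minus strand) was at 24.1, 31.6, 30.1 and 25.2 CPM in S727A 1 to 4 and at 31.2, 45.5, 36.4 and 32.5 CPM in WT 1 to 4, with S727A 2 just above WT 1. Its log2 fold change was -0.39 ± 0.13 (SE, edgeR adjusted p = 0.177). The FPKM ratio of Col15a1 over Col18a1 was 7.00, 10.3, 12.5 and 11.7 in S727A and 4.99, 3.60, 6.85 and 6.27 in WT, so the ratios did not overlap between groups, with S727A 1 and WT 3 close to each other.

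The remaining chains of this class were rare. Col13a1 and Col23a1, which span the cell membrane, were at 2.37 ± 0.977 against 1.33 ± 0.37 CPM and 3.68 ± 1.77 against 4.02 ± 0.619 CPM in S727A and WT (SD, n = 4). Col26a1 was at 2.23 ± 1.14 and 0.90 ± 0.533 CPM and Col28a1 at 2.42 ± 0.523 and 1.99 ± 0.558 CPM (SD, n = 4). Log2 fold changes were 0.83 ± 0.34 for Col13a1, -0.12 ± 0.29 for Col23a1, 1.24 ± 0.48 for Col26a1 and 0.29 ± 0.27 for Col28a1 (SE), with edgeR adjusted p from 0.215 to 0.864. Chains that did not pass the filter had between 1 and 71 counts over all 8 libraries. They were the cartilage chains Col2a1 (41 counts), Col9a1, Col9a3 and Col10a1 (10 counts, 2 in WT 2 and 8 in WT 4), the fibrillar Col24a1 (18), the FACIT chain Col19a1 (15), the anchoring fibril chain Col7a1 (71), the membrane-spanning Col17a1 (20) and Col25a1 (54), and Col6a4 (1) and Col6a5 (28, of which 18 in S727A 1). Of the 33 that passed, Col9a2 and Col11a1 reached the filter's cut-off of 0.7895 CPM in all 4 S727A libraries but in 2 WT libraries. Col26a1 reached it in 3 S727A libraries and 1 WT library. These 3 thus passed mainly through the group in which they were higher.

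In the make-up of the collagen transcripts the groups overlapped for all 4 classes. Fibrillar chains held 36.2 ± 5.29% of the summed collagen FPKM in S727A and 33.3 ± 2.61% in WT, network chains 38.1 ± 3.35% and 38.8 ± 2.92%, FACIT chains 2.64 ± 0.385% and 2.84 ± 0.294%, and other chains 23.1 ± 3.76% and 25.1 ± 1.66% (SD, n = 4). S727A 1 differed from the other S727A libraries in having more fibrillar (44.0% against 32.7 to 34.2%) and less of the other chains (18.4% against 22.6 to 27.5%). In CPM it was the lowest S727A library for 7 of the 10 tested other chains and for 0 of the 9 fibrillar chains, while S727A 4 was the lowest for 7 of the 9 fibrillar chains. Over all tested genes these shares were 26.9% for S727A 1 and 28.9% for S727A 4. Type XVIII had 0.669 ± 0.0457% of collagen FPKM in S727A and 1.34 ± 0.417% in WT, and the minor type IV chains 2.23 ± 0.128% and 2.73 ± 0.33% (SD, n = 4). For type XVIII the groups did not overlap, and for the minor type IV chains WT 3 at 2.32% lay below S727A 4 at 2.39%. The groups also overlapped for the shares of types I, III, V, VI, VIII and XV and of Col4a1 with Col4a2. Type XVIII was thus the sole type share without overlap, and these shares were not tested. A share also depends on the summed collagen FPKM, whose mean was 776 in S727A and 551 in WT. In CPM, Col18a1 itself overlapped between the groups.

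**Figure D4:**
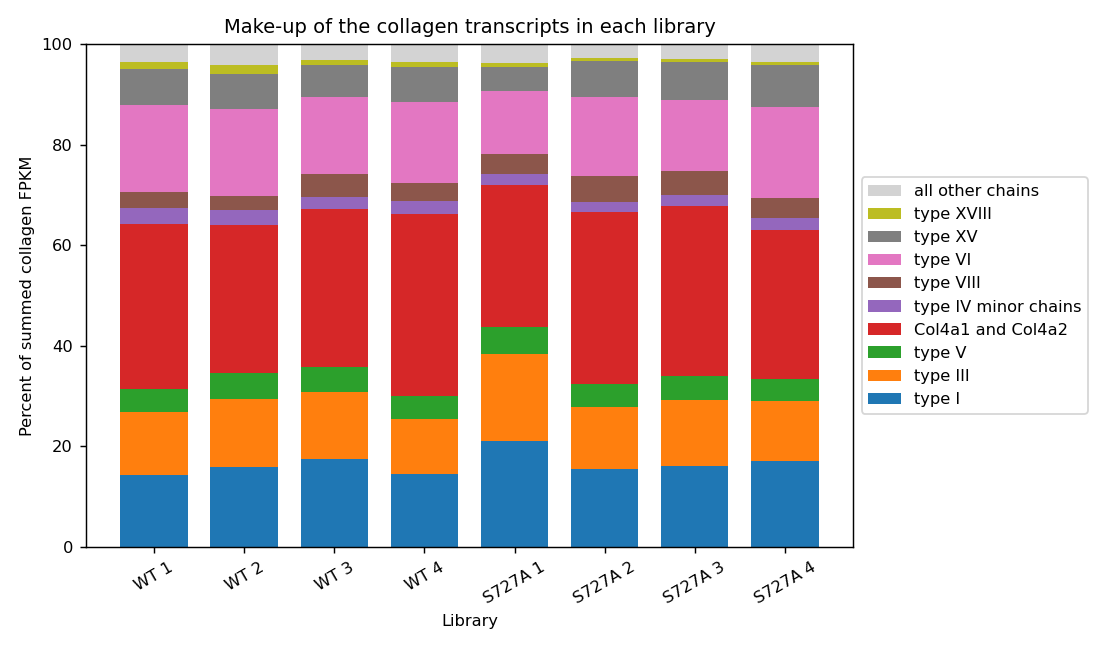
Share of the main collagen types, with all other chains in grey, in the summed FPKM of all collagen chains (vertical axis, percent) in the 8 libraries. Every type shown is present in all 8 libraries, with Col4a1 and Col4a2 between 28.2% and 36.3%, and S727A 1 has the largest share of types I and III.

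Genes that act on collagen were followed beside the chains, from lists drawn up with earlier results of these data known. Of 28 tested genes for collagen maturation, 23 had a log2 fold change above 0 (49.4% of all tested genes did), with a median of 0.20. In edgeR 0 were called, with 10 higher and 1 lower at an unadjusted p under 0.05, against 8.97% and 8.79% of all tested genes. Log2 fold changes were 0.32 ± 0.09 for P4hb, a subunit of prolyl 4-hydroxylase, 0.29 ± 0.10 for the prolyl 3-hydroxylase P3h1, 0.76 ± 0.25 for Loxl4, of the lysyl oxidase family that cross-links chains, and -0.50 ± 0.14 for P3h4 (SE). In this list the groups did not overlap for 2 genes that were higher, P4hb and P3h1, and for 1 that was lower, Mia3, against 4.07% and 4.36% of all tested genes. For Mia3 (log2 fold change -0.13 ± 0.08, SE) S727A 4 at 87.63 CPM and WT 4 at 87.7 CPM were almost equal. For P3h1 the closest libraries were S727A 3 at 26.93 CPM and WT 2 at 26.31 CPM. Without WT 3 edgeR called 4 genes of this list higher (Adamts2, Loxl1, Loxl3 and Loxl4) and 0 lower, where it called 1.25% and 0.847% of all genes. WT 3 was the highest WT library for each of these 4 genes. Here and for the lists that follow, calls without WT 3 describe its influence and are no test of genotype.

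Collagen receptors (9 tested) had a median log2 fold change of 0.11 and 0 calls in edgeR, with 2 higher and 1 lower at an unadjusted p under 0.05. Here and for the next 3 lists, 8.97% of all tested genes were higher and 8.79% lower by that measure. Ddr2, the discoidin domain receptor of fibroblasts, lay below every WT library in all S727A libraries (means of 34.0 against 43.3 CPM, log2 fold change -0.35 ± 0.10) and Ddr1 above (61.0 against 50.2 CPM, 0.28 ± 0.10, SE), with edgeR adjusted p of 0.135 and 0.179. Such separation held for 4.36% of all tested genes as lower and 4.07% as higher. The collagen uptake receptor Mrc2 had a log2 fold change of 0.37 ± 0.16 (SE). Basement membrane partners of type IV (16 tested, median 0.02) were split, 9 above and 7 below 0. Sparc, a collagen-binding protein, had a log2 fold change of 0.54 ± 0.19, the nidogen Nid2 0.29 ± 0.12 and the laminin chain Lama5 -0.40 ± 0.13 (SE). In edgeR 0 genes of this list were called, with 2 higher and 1 lower at an unadjusted p under 0.05. Fibril-binding proteoglycans (8 tested, median 0.28) had 0 calls in edgeR and 1 gene, Lum, higher at an unadjusted p under 0.05, with a log2 fold change of 0.25 ± 0.11 (SE). TGF-beta ligands, receptors and related genes (12 tested, median 0.13) also had 0 calls in edgeR, with 3 higher and 1 lower at an unadjusted p under 0.05. Tgfb2, Tgfbr1 and Tgfb3 had log2 fold changes of 0.52 ± 0.21, 0.35 ± 0.15 and 0.35 ± 0.16, and the co-receptor Tgfbr3 of -0.54 ± 0.15 (SE). Without WT 3 edgeR called 1 gene higher in each of the receptor (Mrc2), proteoglycan (Fmod) and TGF-beta (Tgfb3) lists and 0 among the basement membrane partners, against 1.25% of all genes as higher.

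Markers of cells that make collagen were set beside the chains, and their part in the collagen differences was not tested. Fibroblast markers (10 of 10 tested, 7 with a fold change above 0, median 0.17) summed to 1838 to 2280.0 CPM in S727A and 1834 to 2310.0 CPM in WT. This list holds Col14a1, itself a collagen chain, and without it 6 of 9 markers were above 0, the median was 0.10 and the sums were 1779 to 2217 and 1800.0 to 2260.0 CPM. Most of each sum was Gsn, at 1281 to 1804 CPM in S727A and 1493 to 1851 CPM in WT (log2 fold change -0.14 ± 0.12, SE). The sums thus say little about the other markers, which differed in sign. Pdgfra, a defining fibroblast gene, had a log2 fold change of 0.03 ± 0.08 (SE). In this list Scara5 had a log2 fold change of -1.14 ± 0.27 and Mfap5 of 1.00 ± 0.35 (SE), with edgeR adjusted p of 0.119 and 0.215. Activated fibroblast markers (10 of 10 tested, 8 above 0, median 0.59) summed to 1299, 1397, 1529 and 884 CPM in S727A 1 to 4 and to 672, 831, 1467 and 839 CPM in WT 1 to 4, with WT 3 again inside the S727A range. Postn had a log2 fold change of 0.94 ± 0.42, Thbs4 of 0.88 ± 0.57 and Acta2, which smooth muscle also expresses, of -0.80 ± 0.17 (SE). Acta2 was counted in the smooth muscle list too.

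Endothelial markers (10 tested, 7 above 0, median 0.05) summed to 1321 to 1570.0 CPM in S727A and 1319 to 1462 CPM in WT, and Pecam1 had a log2 fold change of 0.08 ± 0.09 (SE). Smooth muscle and pericyte markers (11 tested, 0 above 0, median -0.28) summed to 1384 to 1667 CPM and 1750.0 to 2426 CPM, without overlap. Macrophage markers (10 tested, 0 above 0, median -0.53) summed to 359 to 484 CPM in S727A and 479 to 885 CPM in WT, with S727A 2 just above WT 4 and WT 3 the highest library at 885 CPM. Schwann cell markers (6 of 8 tested, 0 above 0, median -0.43) summed to 11.8 to 19.4 and 16.1 to 26.0 CPM, and epicardial markers (7 tested, 3 above 0, median -0.04) to 26.4 to 66.4 and 38.6 to 56.2 CPM. Heart muscle markers (10 tested, 4 above 0, median -0.14) had their highest sums in WT 1 (123900 CPM) and WT 2 (117700 CPM). The largest part of these sums was Myh6, at 51650, 48200, 30470 and 31290 CPM in WT 1 to 4. WT 1 and WT 2 were also the WT libraries with the lowest summed collagen FPKM, and a link between these values was not tested. In edgeR 0 genes of these cell type lists were called (smallest adjusted p 0.0902, for Csf1r of the macrophage list). At an unadjusted p under 0.05 there were 2 higher and 1 lower for fibroblast, 0 and 1 for activated fibroblast, 1 and 0 for endothelial, 0 and 8 for smooth muscle and pericyte, 0 and 7 for macrophage, 1 and 2 for heart muscle, 0 and 1 for Schwann cell and 0 and 1 for epicardial markers, against 8.97% and 8.79% of all tested genes. Without WT 3 edgeR called 1 fibroblast marker higher (Pi16) and 1 lower (Scara5), 2 activated fibroblast markers higher (Postn and Thbs4) and 1 lower (Acta2), where 1.25% and 0.847% of all genes were called. It also called as lower 2 smooth muscle and pericyte markers (Acta2 and Abcc9), 2 macrophage markers (Csf1r and Cd163) and 1 heart muscle marker (Atp2a2), and 0 endothelial, Schwann cell, epicardial or cartilage markers in either direction. None of the marker genes was at 0 in all libraries.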

How the data were processed

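Estimated counts and FPKM per gene in 8 libraries were taken as the authors deposited them in a single table. FastQC, HISAT2, Bowtie2 and the build GRCm38.p6 are listed in the submitters' processing notes; how reads were counted was not stated there. Per the file headers, the authors also deposited a log2 ratio, a p-value and a q-value per gene. In each library 6.06% to 7.62% of the estimated counts were not whole (tolerance 1e-06), and all were rounded. Genes were kept by edgeR's filterByExpr defaults (minimum count 10, minimum total 15). S727A was compared with WT by the legacy quasi-likelihood F test of edgeR 4.0.16 (R 4.3.3; TMM, robust dispersions), which is two-sided, in a model of genotype alone. A gene was called where its p, adjusted by Benjamini-Hochberg over all 12998 genes, was under 0.05, and standard errors came from the F statistic. CPM used TMM-scaled library sizes, and the SD of log2 CPM a prior count of 2. FPKM was used for levels between genes.

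No 2 libraries agreed within counting noise (chi-square per degree of freedom 9.13 to 39). Alternatives were RLE normalization, no filter, a filter of CPM at least 1 in 4 libraries, DESeq2 1.42.0, limma 3.58.1 (voom, and trend on log2 of FPKM plus 1), the replicate number as a block, omitted libraries, and offsets per library for GC content and transcript length (GENCODE M21, GRCm38; 98.66% of tested genes had values). The omission of both WT libraries with airway transcripts was added after seeing the data. The procedure was also run on simulated counts in which genes varied independently, so shifts shared by many chains of a library were not covered. Changes were planted only in genes that were not rare and were larger than most of the collagen fold changes. Rare chains and smaller changes were thus not covered either, and no result here rests on that run. The collagen genes, the other lists and the rule for named genes (markers given for the family, the 3 most abundant and the 3 of smallest p per class, other chains where a class is described in full, and up to 4 genes per other list) were chosen with earlier results of these data known. Genes named beyond that rule (Pdgfra, Pecam1, Mia3, Gsn, Myh6 and the genes called without WT 3) were chosen after their values were seen.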

Additional observations from a re-analysis of the deposited data

Results flagged for a closer look

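Over the 66 sets of 4 libraries formed by the 33 tested chains in each group, 3 held a library far from the other 3 of its group, measured as its gap to the nearest library over the whole range (Dixon's 95% limit for 4 samples). Chance flags about 1 in 20 such sets. For Col12a1 the library WT 3 was at 31.5 CPM against 9.20 to 11.7 CPM in the other WT libraries (ratio 0.888). For Col14a1 the library WT 1 was at 34.3 CPM against 50.9 to 53.7 CPM (ratio 0.86). For Col6a3 the library S727A 1 was at 57.5 CPM against 87.6 to 91.6 CPM in the other S727A libraries (ratio 0.882).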

How the results depend on the processing

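Over 18 alternatives, 31 of the 33 tested chains kept the sign of their log2 fold change. The exceptions were low values: Col20a1 (0.04 in the reported fit) was -0.059 without the WT pair with airway transcripts (chosen after seeing the data), -0.10 without the pair that lacks Y-linked reads and between -0.089 (without S727A 4) and 0.133 with single libraries left out, with -0.012 without WT 1. Col23a1 (-0.12) was between -0.504 and 0.056 with single libraries left out, the upper value without S727A 2. The cause was not tested. On the scale of log2(FPKM + 1), whose pseudocount shrinks low values, 14 fold changes were more than 1.5 times smaller. The number of genes called over the whole table was 19. It was 534 in DESeq2, 6 in limma voom, 6 in limma on log2 FPKM, 2 with the replicate block, 242 without the pair that lacks Y-linked reads, 0 without the WT pair with airway transcripts and between 0 and 617 with single libraries left out. Collagen chains called went from 0 to 6 in DESeq2, to 1 without the pair that lacks Y-linked reads, and to between 0 and 10 with single libraries left out. Chains higher at an unadjusted p under 0.05 went from 18 to 3 without the WT pair with airway transcripts, a fit that keeps WT 2 and WT 3 alone as WT. Their number was 9 without the pair that lacks Y-linked reads and between 6 and 21 with single libraries left out.

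With the replicate number as a block 20 chains were higher at an unadjusted p under 0.05 (7.86% of all genes) and 0 were called (2 of all genes). No pairing of same-numbered libraries was stated, though S727A 4 and WT 4 both had almost no reads of Y-linked genes. The correlations of their deviations from the group means, for numbers 1 to 4, were -0.0518, -0.102, 0.0646 and 0.0707. Of the 4 S727A libraries, 1 correlated best with its own number. Col9a2, Col11a1 and Col26a1 had few counts, which limits the precision of their fold changes.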
